A study of Mus musculus with 36 samples.

Results

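The genes of 6 fibroblast growth factors (Fgf2, Fgf4, Fgf5, Fgf7, Fgf10 and Fgf21) and of the 4 FGF receptors (Fgfr1, Fgfr2, Fgfr3 and Fgfr4) were followed through mouse reprogramming under SGC0946, which blocks the histone H3 lysine methyltransferase DOT1L, and under vehicle. These 10 of the 20325 genes in the files were taken by name. Fgf4 and Fgf10 were chosen in part by their response to the inhibitor in these libraries, that is by their levels with inhibitor against control. Those changes under inhibitor are therefore given as a description, with no test, and counts of called genes in inhibitor comparisons cover the other 8. Control libraries also enter the comparisons of controls with each other and with uninduced fibroblasts. Fgf4 and Fgf10 were tested and counted in those. Their choice may bear on these p-values and counts as well, and its effect was not tested.

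RNA sequencing gave 36 libraries in 18 groups of 2. All cells except the embryonic stem cells (ESCs, line V6.5) were mouse embryonic fibroblasts (MEFs) from E13.5 embryos, homozygous for a cassette of Oct4, Klf4, Sox2 and c-Myc at Col1a1 and heterozygous for the reverse tetracycline transactivator at Rosa26, so that doxycycline starts reprogramming. The timecourse comprised untreated MEFs, cells at day 2 of doxycycline with inhibitor or the vehicle DMSO (control), and cells at day 4 with inhibitor on days 0 to 4 (the full window), on days 2 to 4 (the mid window), on days 0 to 2 (the early window) or with DMSO throughout. In the sort, cells were separated by the surface protein CDH1 (E-cadherin) after 3.5 days of doxycycline into CDH1+ and CDH1- cells and kept on doxycycline with inhibitor or DMSO to day 5.5. In the lentivirus experiment, MEFs carried a Cdh1 or an empty lentivirus and were left uninduced or given doxycycline for 2 days with inhibitor or DMSO. In MEFs with the Cdh1 virus, replicate 2 is named a day 2 reprogramming sample in 1 label field and an uninduced one in 2 others, and was kept with the MEFs. Its Pou5f1 and Sox2 levels were 0.774 and 2.14 counts-per-million, near those of the other 3 lentivirus MEF libraries (1.01 to 1.22 and 1.5 to 2.83), where every lentivirus library at day 2 had at least 86.9 and 51.6. ESCs were harvested 24 h after removal of feeder cells. Reprogramming cells and ESCs grew on irradiated feeder MEFs in ESC medium, and MEFs in MEF medium without LIF. In any comparison with MEFs, reprogramming, feeder RNA and medium cannot be told apart, nor can fewer cells of a type and less RNA per cell. The share of feeder RNA was not measured in any group, and its part in differences between groups of reprogramming cells was not tested.

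FGFs are secreted ligands that bind receptor tyrosine kinases, with heparan sulphate as a cofactor for most and a klotho protein for the endocrine members such as FGF21. Receptors of the FGFR1 to FGFR3 genes are spliced into an epithelial IIIb and a mesenchymal IIIc form. FGF7 and FGF10 are mesenchymal ligands that act on the IIIb form of FGFR2, and FGF4 acts on IIIc forms. The bound receptor signals through FRS2, RAS and ERK, and Sprouty proteins, DUSP phosphatases and SEF (Il17rd) damp the signal. In mouse pluripotent cells Fgf4 is a target of OCT4 and SOX2 through an enhancer in its last exon, and autocrine FGF4 drives ERK activity that prepares the cells for differentiation. Gene-level counts hold both splice forms together.

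RefSeq promoter windows (build GRCm38.p6, 250 bases before to 50 after a start site) were matched by symbol for 9 of the 10 genes. Those of Fgf4 and Fgf10, the ligands chosen in part by their response, and of Fgfr3, the receptor gene called higher with inhibitor, are shown. They lie at chr7:144861136-144861435, chr13:118714449-118714748 and chr5:33721474-33721773, all on the plus strand, and the Fgfr3 window is the upstream one of 2. Capitals mark GC boxes (GGGCGG) and CCAAT boxes (CCAAT), each on either strand.
Fgf4: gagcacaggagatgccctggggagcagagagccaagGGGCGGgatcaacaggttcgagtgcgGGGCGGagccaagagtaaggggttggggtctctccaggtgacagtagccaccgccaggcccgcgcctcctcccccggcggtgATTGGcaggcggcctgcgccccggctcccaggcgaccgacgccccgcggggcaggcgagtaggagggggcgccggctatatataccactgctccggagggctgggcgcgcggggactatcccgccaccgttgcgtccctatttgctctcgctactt
Fgf10: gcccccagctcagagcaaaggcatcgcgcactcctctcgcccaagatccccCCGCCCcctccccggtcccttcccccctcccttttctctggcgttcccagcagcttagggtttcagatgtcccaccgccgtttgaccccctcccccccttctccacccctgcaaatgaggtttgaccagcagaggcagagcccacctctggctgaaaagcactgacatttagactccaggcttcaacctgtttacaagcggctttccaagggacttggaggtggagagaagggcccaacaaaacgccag
Fgfr3: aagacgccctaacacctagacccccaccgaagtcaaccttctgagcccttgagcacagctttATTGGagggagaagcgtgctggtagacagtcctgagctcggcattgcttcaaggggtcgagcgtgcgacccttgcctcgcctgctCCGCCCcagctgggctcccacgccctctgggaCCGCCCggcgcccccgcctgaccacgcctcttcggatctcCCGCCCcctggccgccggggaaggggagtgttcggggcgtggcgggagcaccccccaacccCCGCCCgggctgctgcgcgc
The Fgf4 window held 2 GC boxes and 1 CCAAT box, the Fgf10 window 1 GC box and this Fgfr3 window 4 GC boxes and 1 CCAAT box. Of all 32851 windows, 35.7% held a GC box and 37.4% a CCAAT box. The TATA box letters TATAAA were found in the windows of Fgf5 and Fgf21 (13.6% of all windows), and the octamer ATGCAAAT (1.74%) and the AP-1 letters TGANTCA (7.81%) in no window of the 9 genes. Only these exact letters were counted. The Fgf4 window holds the run TATATATA, which the search does not cover, and other TATA forms were not tested. GC content was 69.7% for Fgf4 and 69.7% for this Fgfr3 window, against 60.7% for Fgf10, 45.7% for Fgf7 and 43.7% for Fgfr2.

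Expected counts per library summed to 32.9 M to 50.9 M in the timecourse, 34.9 M to 43.1 M in the sort, 18.5 M to 35.9 M in the lentivirus experiment and 30.7 M and 35.2 M in ESCs. Levels of 1 gene are counts-per-million (CPM) of the normalised library size, and levels of different genes are compared in transcripts-per-million (TPM), which account for length. Log2 fold changes carry the SE of the edgeR quasi-likelihood fit, and calls rest on p-values adjusted by Benjamini-Hochberg over all genes tested, with a threshold of 0.05. Whether replicates are separate cultures is not given in the labels, and the p-values speak only of variation between the 2 libraries of each group, some or all of which may be technical. Marker genes went with the labels: the 9 fibroblast markers summed to 161 and 185 CPM in ESCs, against 22100 and 22200 CPM in timecourse MEFs, and the 8 pluripotency markers to 3130 and 3340 CPM in ESCs, against no more than 0.732 CPM in any MEF library.

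Fgfr1, the main mesenchymal receptor gene, was the most abundant receptor mRNA in every group. It held between 74.7% (MEFs with the empty virus) and 91.8% (the early window) of the summed TPM of the 4 receptors. Gene length minus the effective length given for it was 0 in lentivirus and ESC libraries. In timecourse and sort libraries it was 59.9 to 88.8 bases. Ranges of TPM shares across experiments are therefore a description only. In timecourse MEFs Fgfr1 stood at 150 and 155 TPM, Fgfr2 at 16.2 and 17.3, Fgfr3 at 1.35 and 1.11, and Fgfr4 at 0.03 and 0.02. Among ligands Fgf7 led outside ESCs, with 43.6% to 67.6% of the summed TPM of the 6 ligands as group means. In ESCs Fgf4 held 90.5% ± 0.0708 (SD, n = 2) of it. The 4 receptors together summed to 65.3 ± 0.841 TPM in ESCs and 183 ± 3.68 TPM in MEFs with the empty virus (SD, n = 2 each).

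**Figure D1:**
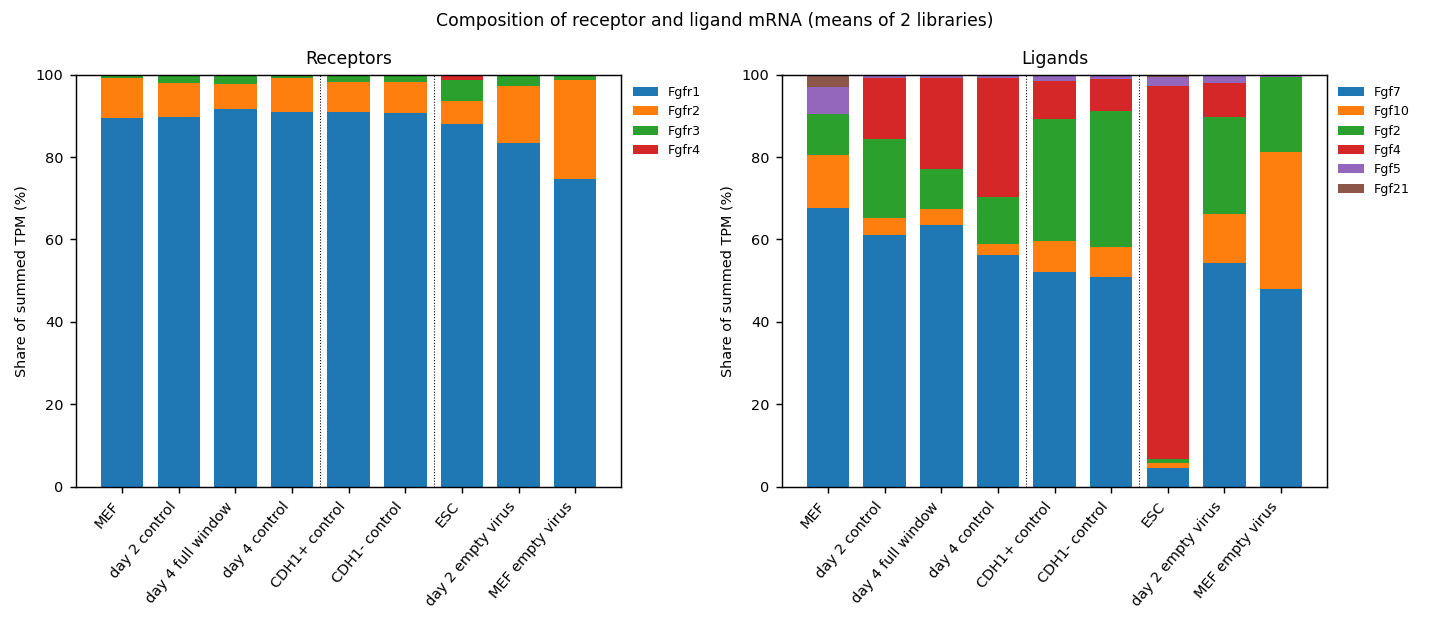
Shares of the summed TPM (%) of the 4 receptors and of the 6 ligands, as means of 2 libraries, in 9 groups. Dotted lines part the timecourse, the sort and the lentivirus libraries with ESCs, since TPM is read within an experiment. Fgfr1 fills 74.7% to 91.6% of the receptor bars shown, and Fgf4 fills 90.5% of the ESC ligand bar.

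Reprogramming without inhibitor was set against MEFs first. Fgf4 appeared, Fgf5, Fgf10 and Fgf21 were lower, and the tested receptors Fgfr1, Fgfr2 and Fgfr3 moved by less than 2-fold. At day 2 all 9 genes that passed the low-count filter (Fgfr4 did not) were called against MEFs, 3 higher and 6 lower, where 74.4% of all tested genes were called in either direction. At day 4, 8 were called, 3 higher and 5 lower, against 82.2% of all genes. Between day 4 and day 2 controls 6 were called, 3 higher and 3 lower, against 77.8%. These shares are near those of all genes, so the counts set the FGF genes apart from nothing. The caveat on the choice of Fgf4 and Fgf10 holds for these counts and for the p-values of both genes.

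Fgf4 had counts of 1 and 0 in MEFs, 309 and 312 in day 2 controls and 735 and 655 in day 4 controls, which is 7.69 and 7.22 CPM at day 2 and 15.9 and 15.3 CPM at day 4. The ratio to MEFs, which rests on 1 count there, was 573 at day 2 (95% counting interval 102 to 22700) and 1200 at day 4 (215 to 47300). Between days 4 and 2 Fgf4 rose by 1.06 ± 0.09 log2 (adjusted p = 3.88e-14, higher in both libraries). Pou5f1 and Sox2, whose proteins act on the Fgf4 enhancer and whose counts may include reads of the cassette, differed by -0.19 ± 0.04 and 0.00 ± 0.04 log2 over the same step.

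The mesenchymal ligand Fgf10 had 11.0 and 9.86 CPM in MEFs, 2.89 and 3.24 CPM at day 2 and 2.11 and 2.33 CPM at day 4, with no overlap between the 3 groups. It fell by 1.77 ± 0.13 log2 at day 2 (adjusted p = 3.23e-15) and was 0.47 ± 0.16 lower again at day 4 than at day 2 (log2 -0.47, adjusted p = 0.0092). That second step missed the threshold without replicate 2 of the day 2 control (0.0961) or replicate 1 of the day 4 control (0.0762). Fgf7, the other FGFR2b ligand, changed little: 32.1 and 31.0 CPM in MEFs, 28.0 and 26.2 CPM at day 2 and 27.4 and 26.0 CPM at day 4 (log2 -0.24 ± 0.06 at day 4 against MEFs, adjusted p = 0.000549). The 9 fibroblast markers summed to 22100 and 22200 CPM in MEFs, 6370 and 6600 CPM at day 2 and 7230 and 7260 CPM at day 4, and all 9 were called lower than in MEFs at both days. The 5 macrophage markers summed to 206 and 204 CPM in MEFs, 29.7 and 27.4 CPM at day 2 and 108 and 104 CPM at day 4, with 5 called lower at day 2 and 4 at day 4. None of the 14 was at 0 in both libraries of a group, and their part in the falls of Fgf10, Fgf5, Fgfr1 and Fgfr2 against MEFs was not tested.

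Fgf5, a marker of the primed epiblast that MEFs also transcribed, had 2.94 and 2.86 CPM in MEFs, 0.348 and 0.44 CPM at day 2 and 0.367 and 0.42 CPM at day 4, far below both MEF libraries at both days. It fell by 2.87 ± 0.33 log2 at day 2 (adjusted p = 2.63e-10). Fgf21, an endocrine metabolic hormone, had 22 and 14 counts in MEFs, 1 and 0 at day 2 and 0 and 0 at day 4. Its level at day 2 was lower by a ratio of 39 (95% counting interval 6.57 to 1580), and at day 4 it was at least 13.9-fold lower, with the floor of 3 counts over the group. The 4 skeletal muscle markers moved the same way, with 58.1 and 58.9 CPM in MEFs, 1.47 and 2.13 CPM at day 2 and 2.18 and 2.43 CPM at day 4, and their part in the Fgf21 result was not tested. Fgf2, an FGF of wide receptor range, had 1.09 and 1.12 CPM in MEFs, 2.04 in both day 2 controls and 1.32 and 1.28 CPM at day 4. It rose by 0.88 ± 0.23 log2 at day 2 (adjusted p = 0.000665), and at day 4 the difference from MEFs was 0.23 log2 (95% interval -0.26 to 0.72).

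Fgfr1 and Fgfr2 were lower at day 2 and close to MEF levels at day 4, and Fgfr3 ran the other way. Fgfr1 had 410.3 and 408 CPM in MEFs, 299 and 294 CPM at day 2 and 449.7 and 459 CPM at day 4. It fell by 0.47 ± 0.03 log2 at day 2 (adjusted p = 1.18e-16) and rose by 0.62 ± 0.03 between days 2 and 4 (adjusted p = 1.17e-20). Fgfr2 had 46.5 and 47.8 CPM, 29.1 and 27.9 CPM and 42.9 and 43.3 CPM at the same 3 points, a fall of 0.73 ± 0.05 log2 at day 2 (log2 -0.73, adjusted p = 5.41e-16) and a rise of 0.60 ± 0.05 to day 4 (adjusted p = 1.51e-13). Fgfr3 had 3.07 and 2.46 CPM in MEFs, 5.00 and 5.70 CPM at day 2 and 3.49 and 4.24 CPM at day 4. It rose by 0.95 ± 0.14 log2 at day 2 (adjusted p = 7.06e-08) and fell by 0.47 ± 0.13 log2 between days 2 and 4 (adjusted p = 0.000915). Against MEFs at day 4, the calls of Fgfr2 (log2 -0.13, adjusted p = 0.0166) and Fgfr3 (log2 0.48, adjusted p = 0.00261) were both lost without replicate 2 of the MEFs (0.142 and 0.0552). The Fgfr2 call was also lost without replicate 1 or 2 of the day 4 control (0.0784 and 0.0523), and the Fgfr3 call without replicate 2 of the day 4 control (0.0703). Fgfr4 had 10 counts or fewer in each timecourse library, and its ratio of day 4 controls to MEFs, from 10 counts against 3, was 2.87 (95% counting interval 0.74 to 16.2).

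**Figure D2:**
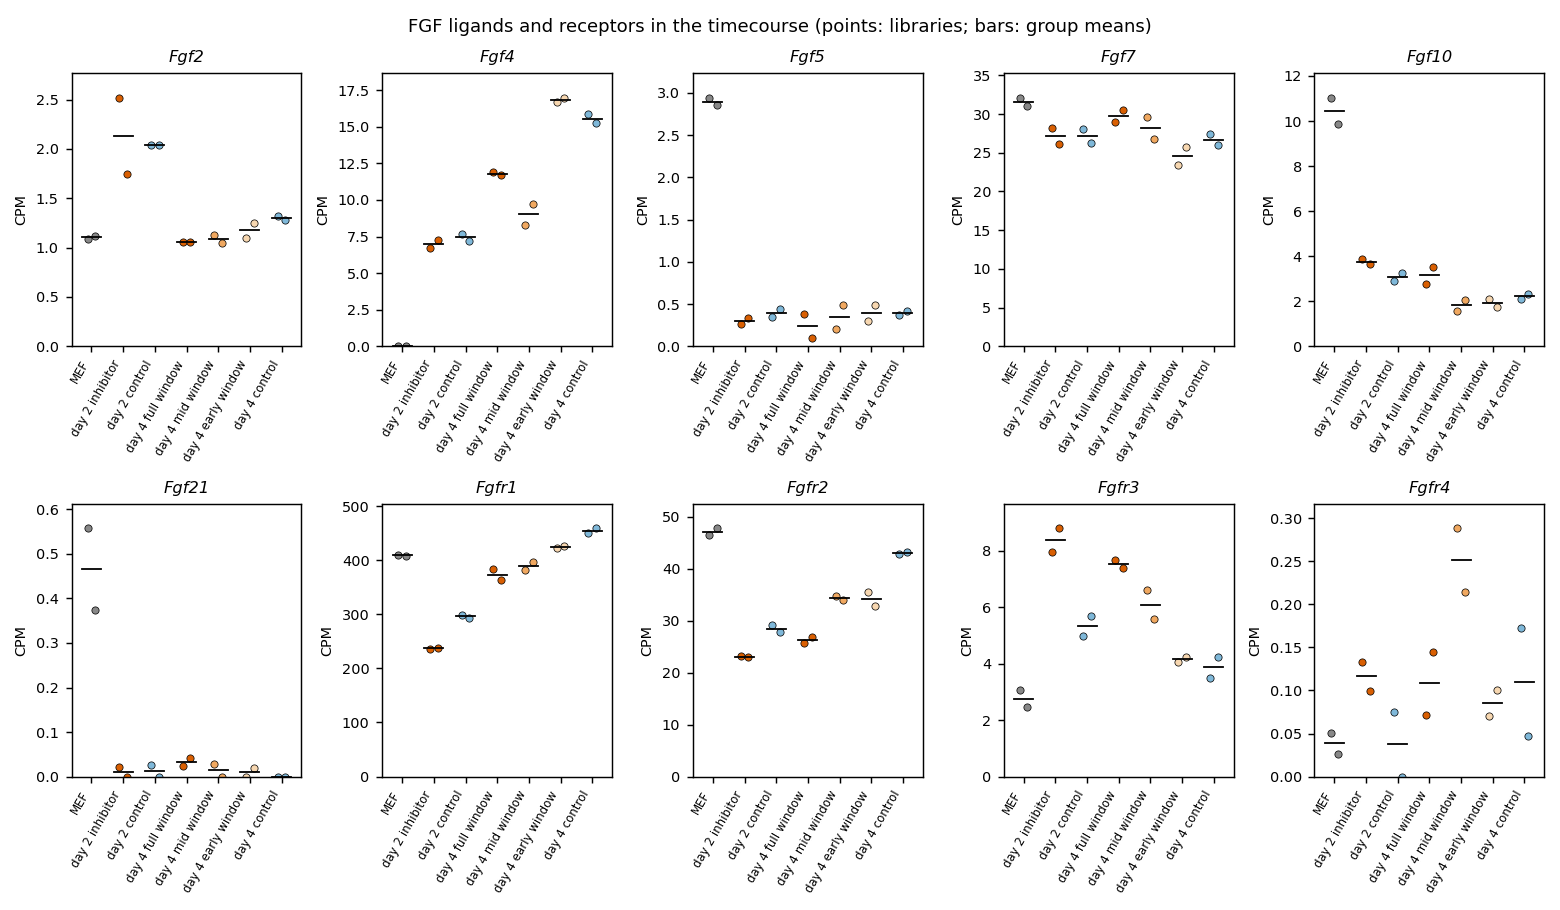
CPM of the 10 genes in the 14 timecourse libraries. Points are libraries, short bars are group means, every axis starts at 0, and groups run from MEFs through day 2 to day 4, with inhibitor groups left of their control. Fgf4 is at most 0.0253 CPM in MEFs and between 15.3 and 15.9 CPM in day 4 controls, and Fgfr3 is higher in the day 2, mid-window and full-window inhibitor libraries than in their controls.

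Under DOT1L inhibition the receptors changed in opposite directions: Fgfr1 and Fgfr2 were lower and Fgfr3 was higher. At day 2, 3 of the 7 tested genes were called, 1 higher and 2 lower, against 17.8% of all genes. At day 4 the early window gave 1 lower call of 7 (5.63% of all genes), the mid window 1 higher and 2 lower (27.4%) and the full window 2 higher and 2 lower (34.8%). Fgfr2 was lower in all 4 of these comparisons.

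Fgfr1 had 236 and 238 CPM at day 2 with inhibitor, against 299 and 294 CPM in controls (log2 -0.32 ± 0.03, adjusted p = 6.88e-10). At day 4 it had 383 and 363 CPM in the full window and 381 and 397 CPM in the mid window, against 449.7 and 459 CPM in controls. The full window lowered it by 0.28 ± 0.03 log2 (log2 -0.28, adjusted p = 9.78e-10) and the mid window by 0.22 ± 0.03 (log2 -0.22, adjusted p = 4.82e-07). In the early window it had 423 and 426 CPM, below both controls, at log2 -0.10 ± 0.03 (adjusted p = 0.0551). That value lies on the threshold, since the gene was called with DESeq2 (0.0381), with other size factors (0.0454) and without the low-count filter (0.0391).

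Fgfr2 had 25.7 and 26.8 CPM in the full window, 34.7 and 34.1 CPM in the mid window and 35.4 and 32.9 CPM in the early window, against 42.9 and 43.3 CPM in controls. No inhibitor library reached the control level. The log2 changes were -0.71 ± 0.05 (adjusted p = 1.2e-14), -0.33 ± 0.05 (adjusted p = 3.89e-06) and -0.34 ± 0.05 (adjusted p = 8.57e-06). At day 2 Fgfr2 had 23.1 CPM in both inhibitor libraries, against 29.1 and 27.9 CPM in controls (log2 -0.30 ± 0.06, adjusted p = 6.96e-05).

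Fgfr3 had 7.67 and 7.39 CPM in the full window and 6.60 and 5.59 CPM in the mid window, against 3.49 and 4.24 CPM in controls. It rose by 0.96 ± 0.12 log2 in the full window (adjusted p = 1.41e-08) and by 0.66 ± 0.13 in the mid window (adjusted p = 9e-05). At day 2 it had 7.95 and 8.80 CPM with inhibitor, against 5.00 and 5.70 CPM in controls (log2 0.65 ± 0.11, adjusted p = 3.4e-05). In the early window it had 4.06 and 4.25 CPM, overlapping the controls, with a difference of 0.11 log2 (95% interval -0.16 to 0.37).

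The mid and early windows, which differ only in when the inhibitor was present, were compared directly, and 3 of 7 genes were called against 21.2% of all genes. Fgfr3 was 0.55 ± 0.12 log2 higher in the mid window (adjusted p = 0.00105), Fgf7 0.20 ± 0.06 higher (adjusted p = 0.0214) and Fgfr1 0.13 ± 0.03 lower (log2 -0.13, adjusted p = 0.00312). Fgfr2 did not pass, at 0.01 log2 with a 95% interval of -0.10 to 0.12. Without replicate 1 of the mid window none of the 3 calls held (adjusted p = 0.0519 for Fgfr3, 0.322 for Fgf7 and 0.0643 for Fgfr1), and the Fgf7 call was also lost without replicate 1 of the early window (0.249) and with DESeq2 (0.0704).

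Among the ligands, Fgf4 had 11.9 and 11.7 CPM in the full window, 8.30 and 9.75 CPM in the mid window and 16.7 and 17.0 CPM in the early window, against 15.9 and 15.3 CPM in day 4 controls. The mid-window libraries were the lowest of day 4, and those of the early window lay above both controls. The log2 values were -0.40, -0.78 and 0.11, and the value of the mid against the early window was -0.90. At day 2 Fgf4 had 6.70 and 7.25 CPM with inhibitor, against 7.69 and 7.22 CPM in controls, and the groups overlapped (log2 -0.09). Pou5f1 differed with inhibitor by -0.32 ± 0.04 log2 in the full window, -0.27 ± 0.04 in the mid window, 0.03 ± 0.04 in the early window and -0.26 ± 0.04 at day 2, and Sox2 by -0.30, -0.21, 0.08 and -0.24 (SE 0.04 each). The part of these factors in the Fgf4 values was not tested.

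Fgf10 had 2.76 and 3.53 CPM in the full window, 1.59 and 2.04 CPM in the mid window and 2.09 and 1.74 CPM in the early window, against 2.11 and 2.33 CPM in day 4 controls. It was above the controls only with the full window among these 3 (log2 0.51, against -0.29 for the mid and -0.22 for the early window). At day 2 it had 3.85 and 3.64 CPM with inhibitor, against 2.89 and 3.24 CPM in controls (log2 0.29).

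Fgf7 was called higher in the full window, with 28.9 and 30.5 CPM against 27.4 and 26.0 CPM in controls (log2 0.15 ± 0.06, adjusted p = 0.0473). The call did not hold with DESeq2 (0.133), with other size factors (0.0615), without the filter (0.107) or without any 1 of the 4 libraries: replicates 1 and 2 of the full window (0.0652 and 0.281) and of the control (0.0655 and 0.329). Fgf2 and Fgf5 were not called in the 4 timecourse comparisons of inhibitor with control. For Fgf2 the 95% intervals ran from -0.78 to 0.46 log2 over these, and for Fgf5, with 5 to 24 counts per day 2 or day 4 library, from -1.70 to 0.89. Without replicate 1 of the full window, Fgf5 was called lower there (log2 -1.90, adjusted p = 0.0282). Fgf21 had 0 to 2 counts in these libraries.

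Markers of other states moved with the same treatment. The 6 epithelial markers summed to 73.3 and 70.9 CPM in the full window, 44.7 and 46.5 CPM in the mid window and 25.4 and 26.1 CPM in the early window, against 17.6 and 16.9 CPM in day 4 controls, and all 6 were called higher in the full and mid windows. At day 2 they summed to 17.3 and 17.2 CPM with inhibitor, against 7.19 and 6.9 CPM in controls, with 5 called higher. The 8 pluripotency markers summed to 4.03 and 4.73 CPM in the full window, against 1.08 and 0.909 CPM in controls, with 1 of the 8 at 0 in both full-window libraries and 2 in both controls. The 9 fibroblast markers summed to 7920 and 7690 CPM in the full window, against 7230 and 7260 CPM in controls, but 4 were called higher and 4 lower, with a median of -0.08 log2. Lum, a proteoglycan, differed by -1.24 ± 0.11 log2 and Col3a1, a fibrillar collagen, by -0.27 ± 0.03, whereas Postn, a matrix protein, rose by 0.28 ± 0.04. The 5 macrophage markers summed to 95.9 and 93.7 CPM in the full window, against 108 and 104 CPM in controls, with 2 called lower. The 4 endothelial markers summed to 32.2 and 34.1 CPM in the full window, against 48.6 and 49.9 CPM in controls, with 2 called higher and 1 lower. The 3 keratinocyte markers summed to 6.14 and 5.68 CPM there, against 2.83 and 2.75 CPM, with 1 of 2 tested called higher. The 4 skeletal muscle markers summed to 3.76 and 3.05 CPM, against 2.18 and 2.43 CPM, with 1 called higher. The part of these cells in the receptor changes was not tested.

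**Figure D3:**
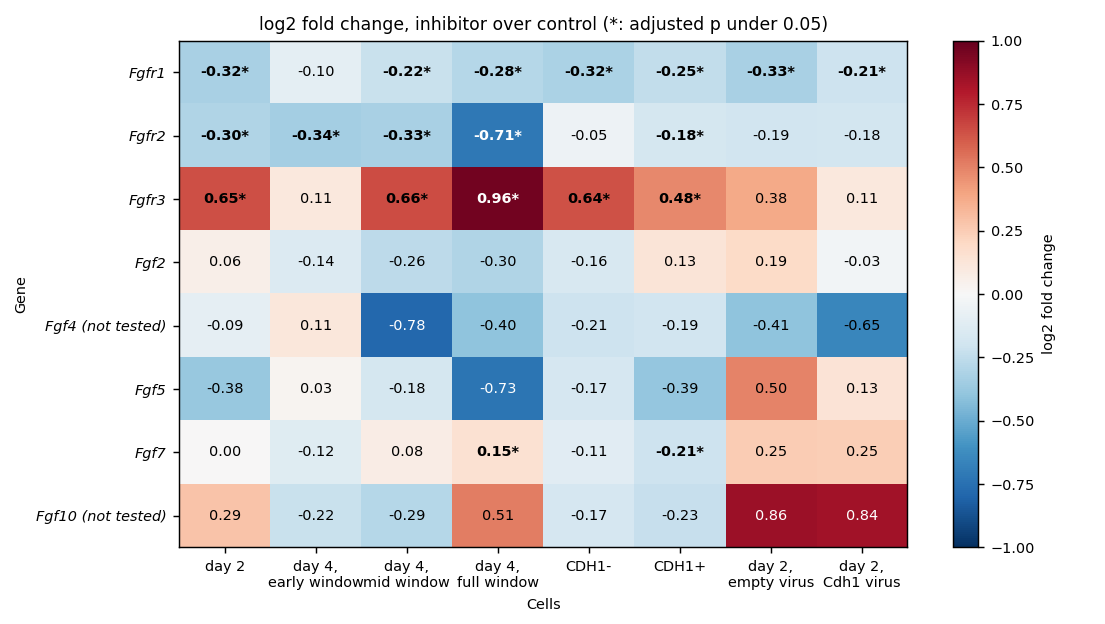
Log2 fold change of inhibitor over control for the 3 receptors and 5 ligands with enough counts, in 8 comparisons. Asterisks mark adjusted p under 0.05, Fgf4 and Fgf10 carry no test, and the colour scale ends at -1 and 1. Fgfr1 is negative in all 8 columns and called in 7, and Fgfr3 is positive in all 8 and called in 5.

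In sorted cells at day 5.5 the CDH1+ and CDH1- controls differed in 3 ligands, and no receptor passed the test. Of 8 genes tested (Fgf21 and Fgfr4 were filtered out), 3 were higher in CDH1+ cells and 0 lower, against 26.6% of all genes called. Fgf4 and Fgf10 are among the 3, and the caveat on their choice holds here too. Fgf4 had 14.6 and 14.0 CPM in CDH1+ cells, against 10.3 CPM in both CDH1- libraries (log2 0.47 ± 0.09, adjusted p = 5.14e-06). Fgf7 had 72.2 and 67.2 CPM in CDH1+ cells, against 59.7 and 59.5 CPM in CDH1- cells (log2 0.23 ± 0.04, adjusted p = 9.36e-06). Fgf10 had 18.1 and 16.9 CPM in CDH1+ cells, against 14.5 and 15.3 CPM in CDH1- cells (log2 0.23 ± 0.07, adjusted p = 0.013), a call lost with DESeq2 (0.0824) and without replicate 1 of the CDH1- control (0.111) or of the CDH1+ control (0.163). The 95% intervals of the receptor differences were -0.04 to 0.07 log2 for Fgfr1, -0.18 to 0.08 for Fgfr2 and -0.29 to 0.26 for Fgfr3. The 5 macrophage markers summed to 59.1 and 60.4 CPM in CDH1+ controls, against 10.0 and 9.81 CPM in CDH1- controls, all 5 called higher, and their part in the ligand differences was not tested. The pluripotency markers summed to 10.5 and 9.64 CPM in CDH1+ cells, against 3.40 and 2.74 CPM in CDH1- cells.

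Inhibitor from day 3.5 to 5.5 again went with lower Fgfr1 and higher Fgfr3. In CDH1- cells 1 gene was higher and 1 lower of 6 tested, against 18.7% of all genes, and in CDH1+ cells 1 was higher and 3 lower, against 18.8%. Fgfr1 had 212 and 208 CPM in CDH1+ cells with inhibitor, against 253 and 245 CPM in CDH1+ controls (log2 -0.25 ± 0.03, adjusted p = 2.89e-12). In CDH1- cells it had 197 and 198 CPM with inhibitor, against 239.7 and 252 CPM in controls (log2 -0.32 ± 0.03, adjusted p = 4.5e-17). Fgf7 was not called in CDH1- cells (log2 -0.11 ± 0.04, adjusted p = 0.06), and was without replicate 2 of the CDH1- inhibitor cells (0.0215).

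Fgfr3 had 6.64 and 5.56 CPM in CDH1- cells with inhibitor, against 3.86 and 4.00 CPM in controls (log2 0.64 ± 0.13, adjusted p = 5.63e-05). In CDH1+ cells it had 5.05 and 5.78 CPM, against 4.03 and 3.75 CPM (log2 0.48 ± 0.13, adjusted p = 0.00315). Also called in CDH1+ cells were Fgf7, with 62.8 and 58.0 CPM against 72.2 and 67.2 CPM (log2 -0.21 ± 0.04, adjusted p = 3.85e-05), and Fgfr2, with 19.3 and 17.9 CPM against 20.2 and 21.8 CPM (log2 -0.18 ± 0.06, adjusted p = 0.0375). The CDH1+ calls of Fgfr2 and Fgfr3 were lost with DESeq2 (0.216 and 0.0548), without replicate 2 of the CDH1+ control (0.362 and 0.0613) and without replicate 2 of the CDH1+ inhibitor cells (0.351 and 0.104).

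Markers moved with inhibitor in sorted cells as well. The 6 epithelial markers summed to 195 and 194 CPM in CDH1+ cells with inhibitor, against 141 and 143 CPM in CDH1+ controls, and to 83.9 and 82.9 CPM in CDH1- cells with inhibitor, against 47.2 and 49.2 CPM in CDH1- controls, all 6 called higher in both. The 5 macrophage markers summed to 43.0 and 43.5 CPM in CDH1+ cells with inhibitor, against 59.1 and 60.4 CPM in CDH1+ controls, with 3 called lower. In CDH1- cells they summed to 8.23 and 7.67 CPM with inhibitor, against 10.0 and 9.81 CPM in controls, with 1 called lower. Their part in the Fgf7 and receptor changes was not tested.

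The inhibitor's effect in CDH1+ cells was compared with that in CDH1- cells, and edgeR called 0 of 6 FGF genes and 0.186% of all genes. At an unadjusted p under 0.05 there was 1 of the 6, and DESeq2 called 0. The interval of the difference ran from -0.01 to 0.15 log2 for Fgfr1, from -0.31 to 0.05 for Fgfr2 and from -0.52 to 0.21 for Fgfr3. Fgf4 had 12.7 and 12.3 CPM in CDH1+ cells with inhibitor, against 14.6 and 14.0 CPM in CDH1+ controls (log2 -0.19), and 8.99 and 8.85 CPM in CDH1- cells with inhibitor, against 10.3 CPM in both CDH1- controls (log2 -0.21). Pou5f1 moved by -0.20 ± 0.03 and -0.24 ± 0.03 log2 in the same comparisons, and Sox2 by -0.23 ± 0.04 and -0.22 ± 0.04. Fgf10 had 15.2 and 14.7 CPM against 18.1 and 16.9 CPM in CDH1+ cells (log2 -0.23), and 13.07 and 13.52 CPM against 14.5 and 15.3 CPM in CDH1- cells (log2 -0.17).

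**Figure D4:**
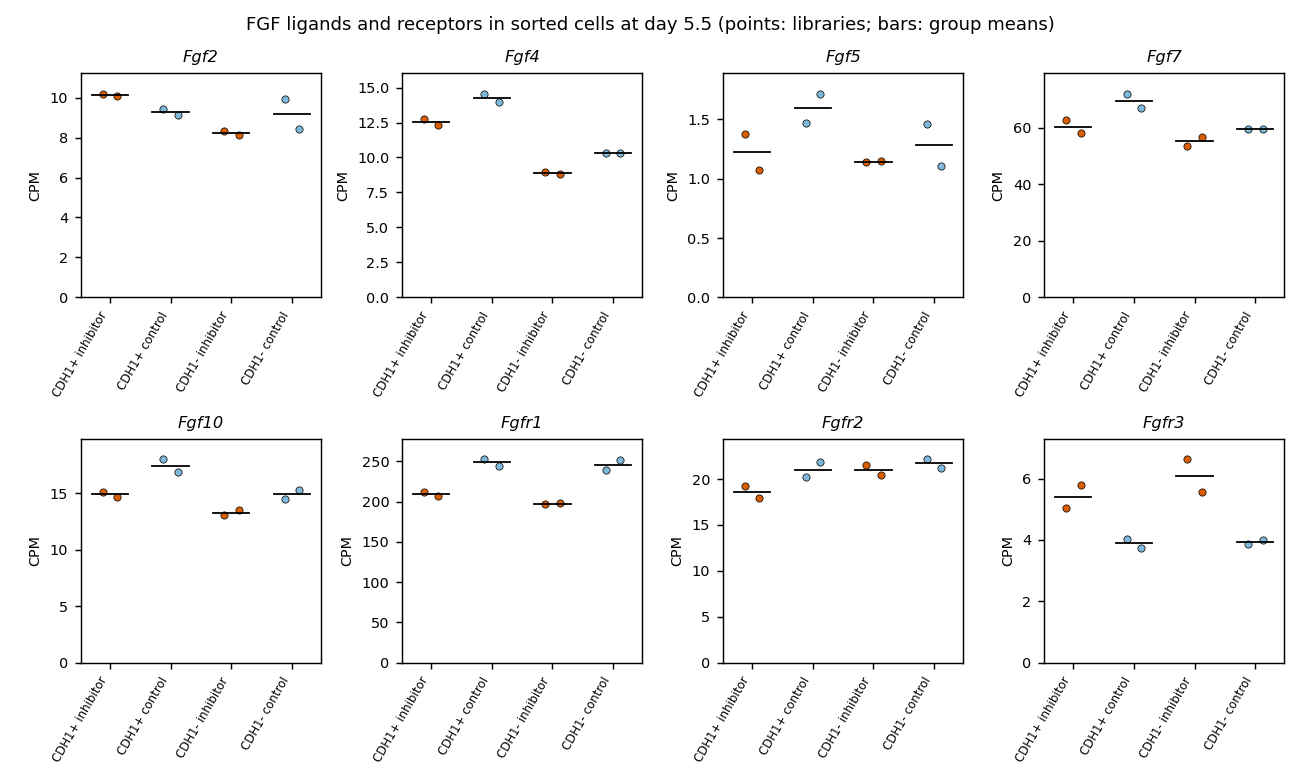
CPM of 8 genes in the 8 libraries of sorted cells at day 5.5. Points are libraries, short bars are group means and every axis starts at 0. Fgfr1 lies between 197 and 212 CPM with inhibitor and between 239.7 and 253 CPM in controls, and Fgf4 is higher in both CDH1+ groups than in both CDH1- groups.

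The Cdh1 lentivirus moved no tested FGF gene past the threshold. Fgf21 was filtered out of these tests. In MEFs it had a group sum of 10 counts with the Cdh1 virus, against 1 count with the empty virus. That is a ratio of 8.39 (95% counting interval 1.19 to 364, for counting error only). At day 2 it had 5 counts against 3, a ratio of 1.4 (0.272 to 9). In MEFs edgeR called 0 of 9 genes with the Cdh1 virus against the empty virus, where 1.14% of all genes were called. At an unadjusted p under 0.05 there were 2, and DESeq2 called 0. With so low a share of all genes, 0 of 9 does not set the FGF genes apart. Fgf4, with 0 counts, and Fgfr4, with group sums of 4 and 6 counts, had too few counts for a call. Fgf7 came nearest, with 47.9 and 50.6 CPM against 57.5 and 61.5 CPM (log2 -0.28 ± 0.07, adjusted p = 0.0662), and passed without the low-count filter (0.0369). Without that replicate 2 of the Cdh1-virus MEFs, again 0 genes were called, and Fgf7 stood at -0.31 log2 (adjusted p = 0.175). At day 2 the virus gave 0 of 9 calls (0.897% of all genes), 1 at an unadjusted p under 0.05 and 0 with DESeq2. This share too is so low that 0 of 9 does not set the FGF genes apart. Fgfr4, with group sums of 2 counts and 1 count, had too few for a call. Fgf4 had 4.56 and 3.88 CPM with the Cdh1 virus at day 2, against 4.48 and 4.14 CPM with the empty virus (95% interval -0.32 to 0.26 log2). In MEFs with either virus Fgf4 had 0 counts in all 4 libraries. Macrophage markers summed to 829 and 712 CPM in MEFs with the Cdh1 virus, against 1210 and 1320 CPM with the empty virus, and the part of these cells in the Fgf7 value was not tested. In day 2 controls with the Cdh1 virus they summed to 78.6 and 76.1 CPM, against 217 and 203 CPM with the empty virus. All 5 were called lower. The 8 pluripotency markers there summed to 1.01 and 1.4 CPM, against 7.32 and 5.4 CPM, with 5 called lower.

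Day 2 cells with the empty virus were set against MEFs with the empty virus, and 7 of 9 genes were called, 2 higher and 5 lower, against 66% of all genes. Fgf4 had 4.48 and 4.14 CPM against 0 counts, at least 63.8-fold higher with the floor of 3 counts over the group. Fgf10 had 9.44 and 9.18 CPM against 69.8 and 72.4 CPM (log2 -2.93 ± 0.09, adjusted p = 1.42e-18). Fgf7 fell by 1.26 ± 0.08 log2 (adjusted p = 4.23e-13), Fgfr2 by 1.30 ± 0.07 (adjusted p = 2.4e-14) and Fgfr1 by 0.36 ± 0.06 (adjusted p = 1.27e-05), and Fgfr3 rose by 0.67 ± 0.13 (adjusted p = 0.000107). Fgf2, which was higher at day 2 in the timecourse, was lower here, with 2.80 and 2.48 CPM in day 2 cells, against 5.49 and 5.56 CPM in MEFs (log2 -1.07 ± 0.17, adjusted p = 8.57e-06). The 2 experiments were fitted apart and their difference was not tested. The 9 fibroblast markers summed to 9180 and 9110 CPM at day 2, against 27100 and 28200 CPM in these MEFs, and the 5 macrophage markers to 217 and 203 CPM, against 1210 and 1320 CPM, with all 14 called lower and their part in the falls not tested. Fgf5 was not called (log2 0.58 ± 0.43, adjusted p = 0.246), but was without replicate 2 of the MEFs with the empty virus (log2 1.67, adjusted p = 0.0193).

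With inhibitor at day 2, Fgfr1 was again lower under both viruses and was the 1 gene called of 7 in each (6.73% of all genes with the empty virus and 5.05% with the Cdh1 virus). With the empty virus it had 178 and 181 CPM with inhibitor, against 227 and 224 CPM in controls (log2 -0.33 ± 0.06, adjusted p = 0.00178). With the Cdh1 virus it had 194 and 176 CPM, against 208 and 219 CPM (log2 -0.21 ± 0.06, adjusted p = 0.0463). This second call was lost with the replicate number as a block (0.0591) and without replicate 1 or 2 of the Cdh1 control (0.0947 and 0.375) or replicate 2 of the Cdh1 inhibitor cells (0.349). Without replicate 1 of the Cdh1 inhibitor cells Fgf7 was called as well (0.0249). Fgfr3 had 8.22 and 8.12 CPM with the empty virus and inhibitor, against 5.80 and 6.77 CPM (log2 0.38 ± 0.12, adjusted p = 0.0597), and 6.78 and 6.57 CPM with the Cdh1 virus and inhibitor, against 6.05 and 6.36 CPM (log2 0.11 ± 0.11, adjusted p = 0.661). Fgfr4 had group sums of 5 counts with the empty virus and inhibitor, against 1 count, a ratio of 5.97 (95% counting interval 0.668 to 282), and of 6 counts with the Cdh1 virus and inhibitor, against 2 counts, a ratio of 2.77 (0.496 to 28.1). Macrophage markers summed to 167 and 169 CPM with the empty virus and inhibitor, against 217 and 203 CPM, with 3 of 5 called lower, and to 84.6 and 78.4 CPM with the Cdh1 virus and inhibitor, against 78.6 and 76.1 CPM, with 0 called. The 6 epithelial markers summed to 12.5 and 16.3 CPM against 12.8 and 12.9 CPM with the empty virus, 1 called higher. With the Cdh1 virus they summed to 122 and 120 CPM against 129 and 126 CPM, with 0 called and a median of 0.58 log2. The 6 include Cdh1, the gene this virus carries, so these sums cannot show how the other epithelial markers moved. The 9 fibroblast markers summed to 7600 and 8420 CPM against 9180 and 9110 CPM with the empty virus, 2 called higher and 1 lower. With the Cdh1 virus they summed to 8140 and 7970 CPM against 8890 and 8900 CPM, 3 called higher and 0 lower. Their part in the Fgfr1 values was not tested.

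Fgf10 was above both controls with inhibitor under either virus. It had 17.2 and 16.5 CPM with the empty virus and inhibitor, against 9.44 and 9.18 CPM in controls (log2 0.86), and 18.0 and 18.6 CPM with the Cdh1 virus and inhibitor, against 10.8 and 9.65 CPM (log2 0.84). Fgf4 had 2.88 and 3.53 CPM with the empty virus and inhibitor, against 4.48 and 4.14 CPM (log2 -0.41), and 2.35 and 3.04 CPM with the Cdh1 virus and inhibitor, against 4.56 and 3.88 CPM (log2 -0.65). Pou5f1 moved beside it by -0.41 ± 0.06 log2 with the empty virus and -0.39 ± 0.06 with the Cdh1 virus. Sox2 moved by -0.53 ± 0.11 log2 with the empty virus (adjusted p = 0.0115). With the Cdh1 virus Sox2 was not called (log2 -0.24 ± 0.11, adjusted p = 0.227). The part of these factors in the Fgf4 values was not tested. The difference of the inhibitor's effect between the viruses gave 0 edgeR calls among 7 FGF genes and 0% of all genes. At an unadjusted p under 0.05 there were 0 of the 7 and 1126 of 15044 genes, and DESeq2 called 0 of the 7 and 24 of all genes.

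ESCs differed from MEFs with the empty virus in 9 of 9 tested genes, 4 higher and 5 lower, where 88.7% of all genes were called. Fgf4 had 124.8 and 120.0 CPM in ESCs, against 0 counts in MEFs, at least 1810-fold higher. Fgf5 had 2.49 and 2.22 CPM in ESCs, against 0.229 and 0.751 CPM (log2 2.24 ± 0.34, adjusted p = 1.47e-06), and Fgfr4 1.88 and 1.24 CPM, against 0.137 and 0.133 CPM (log2 3.48 ± 0.54, adjusted p = 1.85e-06). Fgfr3 had 7.70 and 7.63 CPM, against 4.03 and 3.89 CPM (log2 0.95 ± 0.13, adjusted p = 2.2e-07). The 5 lower in ESCs were lower by 4.81 ± 0.11 log2 for Fgf10 (log2 -4.81), 4.43 ± 0.26 for Fgf2 (log2 -4.43), 3.44 ± 0.09 for Fgf7 (log2 -3.44), 3.18 ± 0.08 for Fgfr2 (log2 -3.18) and 0.80 ± 0.06 for Fgfr1 (log2 -0.80), the largest adjusted p of these being 1.03e-11. Fibroblast markers summed to 161 and 185 CPM in ESCs, against 27100 and 28200 CPM in these MEFs, and macrophage markers to 19.3 and 21.5 CPM, against 1210 and 1320 CPM. ESCs and lentivirus MEFs also differ in origin and culture, which cannot be told apart from cell type here.

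**Figure D5:**
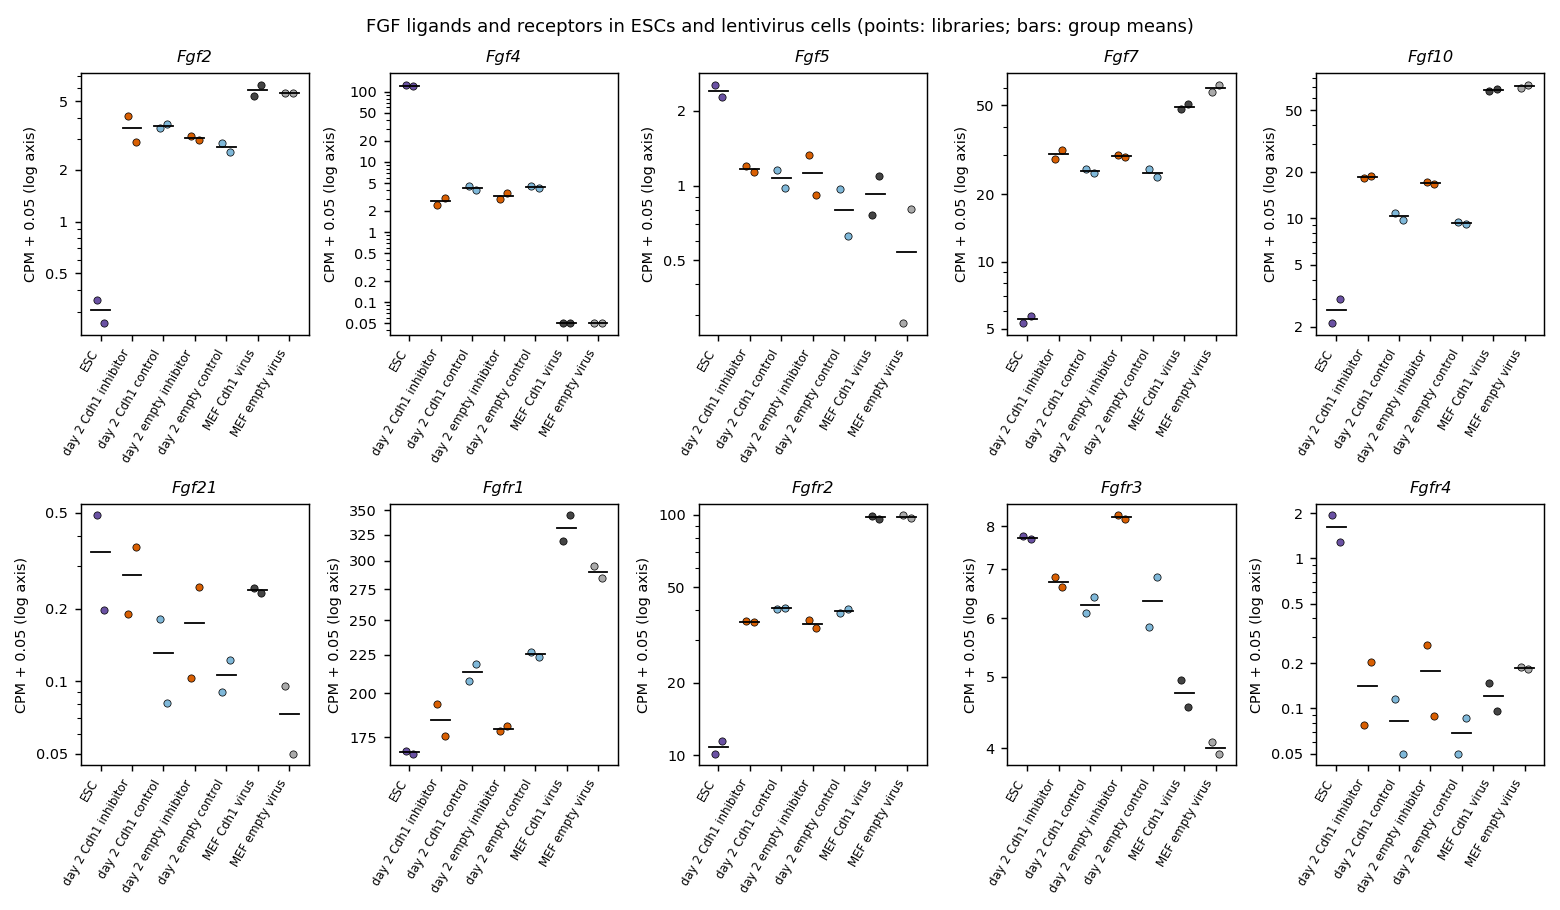
CPM + 0.05 on log axes for the 10 genes in 2 ESC and 12 lentivirus libraries. Points are libraries and short bars are group means, and the small constant places libraries with 0 counts. Fgf4 is at 0 counts in all 4 MEF libraries and at 120.0 and 124.8 CPM in ESCs, and Fgf10 is higher with inhibitor than in the control under both viruses.

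Genes that act with the FGFs were taken as lists. Percentages of all genes are those called in either direction in the same comparison, and a list with a like share is not set apart from other genes by its count. Of 14 feedback inhibitors and ERK-induced genes, 4 were higher and 10 lower at day 2 against MEFs (74.4% of all genes), with a median of -1.12 log2, where the median over all genes was 0.06. Fos and Egr1, immediate early genes, fell by 3.64 ± 0.04 and 2.14 ± 0.04 log2, and Spry1, a Sprouty inhibitor, by 2.59 ± 0.07. With inhibitor in the mid window 2 rose and 8 fell (27.4% of all genes; median -0.19, over all genes 0.01): Etv5, an ETS factor induced by FGF, fell by 0.38 ± 0.04 log2 (adjusted p = 5.65e-10), and Egr1 and Fos rose by 0.44 ± 0.04 and 0.27 ± 0.04. In the mid against the early window 2 were higher and 8 lower (21.2% of all genes), among them Etv5 (log2 -0.51 ± 0.04) and Dusp6, an ERK phosphatase (log2 -0.38 ± 0.05). In the full window 3 rose and 2 fell (34.8% of all genes), with Spry2 at -0.44 ± 0.05, Egr1 at 0.33 ± 0.04 and Dusp5 at 0.44 ± 0.09, and with inhibitor at day 2, 3 rose and 3 fell (17.8%). In the early window 1 rose (5.63%), Etv5 at 0.12 ± 0.04.

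In sorted cells 0 of the 14 rose and 6 fell with inhibitor in CDH1+ cells (18.8% of all genes), and 0 rose and 3 fell in CDH1- cells (18.7%). Spry2 fell in both, by 0.30 ± 0.05 and 0.22 ± 0.05 log2. With either virus at day 2, Fos, Egr1 and Spry1 rose with inhibitor, by 0.45 ± 0.07, 0.47 ± 0.08 and 0.45 ± 0.08 log2 with the empty virus and by 0.46 ± 0.07, 0.46 ± 0.08 and 0.58 ± 0.08 with the Cdh1 virus. These were the 3 called of 14 with the empty virus (6.73% of all genes). With the Cdh1 virus (5.05%) 2 more were called, both lower, Etv5 at -0.39 ± 0.07 and Spry4 at -0.31 ± 0.08 log2. In ESCs against MEFs 9 were higher and 4 lower (88.7% of all genes), with Etv5 at 2.88 ± 0.07 and Egr1 at -3.29 ± 0.08.

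Of 16 further FGF ligand genes (9 passed the filter in the timecourse), 5 were higher and 2 lower at day 4 than in MEFs (82.2% of all genes), and the full window raised 2 and lowered 0 (34.8%). Fgf18, a skeletal growth regulator, had 11.5 ± 0.414 CPM in day 4 controls, against 1.37 ± 0.0326 CPM in MEFs (SD, n = 2 each; log2 3.07 ± 0.13). The 2 genes raised in the full window were Fgf14 (log2 1.17 ± 0.23, adjusted p = 6.75e-05) and Fgf12 (log2 1.70 ± 0.52, adjusted p = 0.00961), which encode intracellular FGF homologues that bind sodium channels. In ESCs 6 of 12 tested were higher than in MEFs with the empty virus and 5 lower (88.7% of all genes). Fgf17 had 16.6 ± 0.318 CPM in ESCs and Fgf15 12.8 ± 0.0922 CPM (SD, n = 2 each), against group sums of 1 count and 0 counts in these MEFs.

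Of 15 co-receptors and ligand-binding proteins (13 tested), the full window raised 6 and lowered 4 (34.8% of all genes), the mid window raised 2 and lowered 4 (27.4%), and day 2 with inhibitor raised 2 and lowered 1 (17.8%). Gpc3, a glypican, rose by 0.73 ± 0.06 log2 in the full window, 0.50 ± 0.06 in the mid window and 0.32 ± 0.06 at day 2, and against MEFs it had fallen by 2.47 ± 0.05 in day 2 controls. Sdc1, a syndecan, fell by 0.30 ± 0.03 in the full window and Flrt3, a membrane protein that binds FGFR1, rose by 0.57 ± 0.09. The klotho co-receptors Kl and Klb were filtered out of the tests, with group means of at most 0.169 CPM for Kl and 0.36 CPM for Klb among MEFs, controls, mid and full windows and ESCs.

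All 11 heparan sulphate enzymes were lower in ESCs than in MEFs, with a median of -1.82 log2 (over all genes 0.00, and 88.7% of them called). With inhibitor 3 rose and 3 fell in the full window (34.8% of all genes), 2 rose and 3 fell in the mid window (27.4%) and 1 rose and 3 fell at day 2 (17.8%). Sulf1, a sulphatase that trims heparan sulphate, rose by 0.61 ± 0.03 log2 in the full window and 0.36 ± 0.03 in the mid window, and Hs2st1 and Hs6st2, sulphotransferases, fell by 0.31 ± 0.04 and 0.35 ± 0.04 in the full window. Of 14 intracellular transducers (13 in the files and tested), the full window raised 2 and lowered 1 (34.8% of all genes) and the mid window raised 0 and lowered 3 (27.4%). Gab1, a docking adaptor, fell in both, by 0.17 ± 0.05 and 0.16 ± 0.05 log2.

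Esrp1 and Esrp2 encode epithelial splicing regulators that favour the IIIb receptor forms. Esrp2 had 3.56 ± 0.0808 CPM in the full window and 1.73 ± 0.047 CPM in the mid window, against 0.942 ± 0.0202 CPM in day 4 controls (SD, n = 2 each), a rise of 1.92 ± 0.20 log2 (adjusted p = 2.41e-10) and of 0.87 ± 0.23 (adjusted p = 0.00318). Esrp2 was not called with inhibitor at day 2 (log2 0.41) or in the early window (log2 -0.01), and it was lower in day 4 controls than in MEFs (log2 -0.785). In sorted cells inhibitor raised Esrp2 by 0.58 ± 0.16 log2 in CDH1+ cells and 0.73 ± 0.19 in CDH1- cells. At day 2 with either virus, 0 of the 2 genes were called with inhibitor. Esrp1 had 1.66 ± 0.0453 CPM in CDH1+ controls, against 0.32 ± 0.291 CPM in CDH1- controls (SD, n = 2 each; log2 2.37 ± 0.33, adjusted p = 4.13e-09), and 94.0 ± 7.52 CPM in ESCs against 0 counts in MEFs with the empty virus. Receptor splice forms were not measured.

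The genes most like each FGF gene over the 14 timecourse libraries were found by Pearson r of log2(CPM + 0.5), as a description of points that share groups and depth. Fgf4 ran closest with Cobl, an actin nucleator (r = 0.998), then Swap70 and Vat1l (0.995 each). Over libraries not used for the choice, Cobl and Fgf4 gave r = 0.911 in the 8 sort libraries and 0.994 in the 12 lentivirus libraries, whereas Swap70 gave 0.177 and 0.757, and Vat1l 0.377 and -0.967. Fgfr1 ran with Ror2, a WNT5A receptor (0.988, then 0.756 and 0.964), Sim2 (0.986, then 0.724 and 0.934) and Fblim1 (0.986, then 0.861 and 0.931). Fgf10 ran with Cav1 (0.982), which gave 0.933 in the sort and -0.874 in the lentivirus libraries, and with Dusp3 (0.98, then -0.08 and 0.863) and Tmem184b (0.979, then 0.705 and 0.874). Fgf21 ran with C330005M16Rik (0.992) and the muscle genes Mybpc1 (0.991) and Myog (0.989). These values rest on the MEF libraries, with 22 and 14 counts of Fgf21, against 0 to 2 in the other timecourse libraries. The lentivirus libraries gave -0.036, -0.522 and -0.271, but Fgf21 had 0 to 10 counts there, too few to show a relation or its absence. Fgfr2 was nearest to Stard13 (0.953), Fbln1 (0.951) and Lrig3 (0.947), and Fbln1 and Lrig3 gave 0.996 and 0.977 in the lentivirus libraries, where Stard13 gave -0.973. Fgfr3 was nearest to 2300002M23Rik (0.961, then 0.453 and 0.837), Gm7455 (0.949, then 0.876 and -0.896) and Pak6 (0.943, then 0.547 and 0.431). Fgf5 was nearest to Dip2a and Qsox1 (0.979 each) and Osbpl5 (0.977), and all 3 were negative in the lentivirus libraries (-0.372, -0.505 and -0.5), after -0.208, 0.629 and 0.463 in the sort. Fgf2 was nearest to Rapgef6 (0.963), Sf3b2 (0.962) and Rpap3 (0.96), and all 3 turned negative in the sort (-0.519, -0.625 and -0.217) and in the lentivirus libraries (-0.835, -0.72 and -0.85). Fgf7 was nearest to Kcna4 (0.881, then -0.234 and 0.953), Copz1 (0.87, then 0.38 and 0.846) and 1500009L16Rik (0.862, then -0.016 and -0.914).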

How the data were processed

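Each library had 1 deposited table of gene-level expected counts and TPM. Per the submitters' processing notes, the tools were Trimmomatic, Bowtie and RSEM 1.2.4, and mm9 and hg18 are the builds named. The deposited expected counts divide reads that map to several genes by a model, and the deposited TPM scale them by gene length. Per the labels' protocols, 1 µg of RNA went into TruSeq V2 libraries, and the timecourse and sort libraries carried 20 ng of human 293T RNA.

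Expected counts were rounded and tested with edgeR 4.0.16 (R 4.3.3), with a robust quasi-likelihood fit, TMM scaling and a filter at a minimum count of 10 and a total of 15. The fits held the 14 timecourse libraries, the 8 sort libraries and the 12 lentivirus libraries with 2 ESC libraries, with 14473, 13968 and 15044 genes tested. The fit was tested on simulated counts. DESeq2 1.42.0, relative log expression size factors, no filter, a replicate block, a pseudocount of 2 for likeness and each library left out were the alternatives. Replicate libraries of every group differed by more than counting noise (chi-square per degree of freedom 1.88 to 13.9). Intervals are 95%, from the SE and the moderated degrees of freedom, and, for count ratios, cover counting error only. The floor for a count of 0 was 3 counts over a group.

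The genes, lists and tests were chosen with earlier results of these data known. Text names all 10 genes, up to 3 called genes with the smallest p per list and comparison, Esrp1, Esrp2, Kl and Klb, and the 3 nearest genes by r of log2(CPM + 0.5). Etv5 and Spry4 with the Cdh1 virus were named after their values were seen. For 1 library of MEFs with the Cdh1 virus (replicate 2), the source field names day 2 reprogramming and the title and treatment name MEFs. It was kept with MEFs, by its title and treatment. RefSeq promoters are of build GRCm38.p6, and no coordinate was taken from the count tables.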

Additional observations from a re-analysis of the deposited data

How the results depend on the processing

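Counts of called FGF genes stayed within 1.5 times under the alternatives run in 13 of the 19 comparisons. With DESeq2, 2 genes were called for inhibitor in CDH1+ cells, where edgeR called 4. The early window gave 2 with DESeq2, without the filter and with relative log expression size factors, where 1 was called. The last also gave 2 for inhibitor with the empty virus, where 1 was called, and no filter gave 1 for the Cdh1 virus in MEFs, where 0 were called. Leaving out 1 library at a time gave 2 to 4 calls for inhibitor in CDH1+ cells, 0 to 2 for inhibitor with the Cdh1 virus, and 0 to 3 for the mid against the early window. Same-numbered replicates did not deviate together (r from -0.16 to 0.124 over 17 comparisons, 1 over 0.1). This cannot show whether the numbers pair samples by origin, which the labels do not give. With the replicate number as a block, inhibitor with the Cdh1 virus gave 0 calls in place of 1, and no other call changed.

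Values that changed sign belonged to genes that were not called, and the cause was not tested. Leaving out 1 library gave these log2 ranges. In CDH1+ against CDH1- controls they were -0.1 to 0.143 for Fgf2, -0.014 to 0.055 for Fgfr1, -0.104 to 0.012 for Fgfr2 and -0.061 to 0.035 for Fgfr3. Fgf5 with inhibitor in CDH1- cells ran from -0.352 to 0.052. At day 2 with the Cdh1 against the empty virus they were -0.149 to 0.083 for Fgf4, -0.031 to 0.089 for Fgf7 and -0.125 to 0.099 for Fgfr3, and in MEFs -0.053 to 0.152 for Fgf2 and -0.029 to 0.01 for Fgfr2. With inhibitor and the Cdh1 virus Fgf2 ran from -0.312 to 0.192. For the difference of inhibitor effects between viruses, Fgf2 ran from -0.503 to 0.001, Fgf7 from -0.07 to 0.06 (0.001 without the filter) and Fgfr2 from -0.044 to 0.056. In day 2 cells against MEFs with the empty virus Fgf5 ran from -0.021 to 1.672. With inhibitor at day 2 the ranges were -0.223 to 0.301 for Fgf2 and -0.056 to 0.058 for Fgf7 (-0.004 with DESeq2 and with relative log expression size factors). In day 4 against day 2 controls they were -0.157 to 0.177 for Fgf5 (0.008 with DESeq2 and without the filter, 0.005 with relative log expression size factors) and -0.062 to 0.033 for Fgf7. The early window gave -0.362 to 0.305 for Fgf5 and -0.031 to 0.249 for Fgfr3, and the mid window -0.951 to 0.29 for Fgf5 and -0.003 to 0.147 for Fgf7. For the mid against the early window they were -0.98 to 0.262 for Fgf5 and -0.045 to 0.063 for Fgfr2 (0 with DESeq2, -0.006 without the filter). Depth limits Fgf5, Fgf21 and Fgfr4 most, and 2 libraries a group limit every test.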

Other observations

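The uninduced fibroblasts of the 2 experiments differed in several FGF genes. Fgf10 had 69.8 and 72.4 CPM in MEFs with the empty virus, and 11.0 and 9.86 CPM in timecourse MEFs. Fgfr2 had 99.2 and 97.0 CPM with the empty virus and 46.5 and 47.8 CPM in the timecourse, and Fgf2 had 5.49 and 5.56 CPM and 1.09 and 1.12 CPM. Fgf5 had 0.229 and 0.751 CPM with the empty virus and 2.94 and 2.86 CPM in the timecourse. Macrophage markers summed to 1210 and 1320 CPM with the empty virus and 206 and 204 CPM in the timecourse, and skeletal muscle markers to 2.56 and 3.13 CPM and 58.1 and 58.9 CPM. The experiments were scaled apart, the timecourse libraries carried 20 ng of human RNA and the lentivirus libraries a virus in the cells, and these values were not tested against each other. The 2 sets of MEF libraries also differed in gene length minus effective length (0 with the empty virus, 59.9 and 62.8 bases in the timecourse).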
